A study of Mus musculus with 30 samples.

Results

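Whole-brain RNA from adult Arid1b+/- mice (HT) was compared with that from wild-type (WT) mice under vehicle, at postnatal day 120 (P120). The comparison used 4 HT-Veh and 4 WT-Veh libraries, replicates 1, 3, 4 and 5 of each group, which are 8 of the 30 libraries of the series. All were male C57BL/6N mice, 1 library per mouse, whose dams drank water with 0.2% saccharin and no drug from P3 to P21, and which had plain water after weaning. HT mice carried 1 copy of a constitutive em1Tcp allele, made with Cas9 nickase and guides on both sides of exon 5 of Arid1b, in every tissue, and they came from HT fathers and WT mothers. The library labelled HT-Veh replicate 2 and the library labelled WT-Veh replicate 2 went against their labels on Arid1b and were left out of both groups. The other 20 libraries were used only for reference, and were 5 HT and 5 WT brains at P10 without treatment and 5 HT-Flx and 5 WT-Flx brains at P120, whose dams drank fluoxetine at 0.1 mg/ml in the same saccharin water. The deposited values are read counts per gene normalized by the authors, not whole reads, so the read depth is unknown. The spread between libraries, 1 per mouse, was the measure of precision. Of 19737 listed genes, 17784 had a mean of at least 10 over the 8 libraries and were tested on the log2(value + 1) scale.

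ARID1B is a DNA-binding subunit of the BAF (mammalian SWI/SNF) complex, which uses ATP to slide or evict nucleosomes and so opens regulatory DNA. It and its paralog ARID1A occupy the same position in the canonical complex and are not found in one complex together. Loss of 1 copy of ARID1B is a known cause of intellectual disability and autism in humans, and in the brain the complex exchanges subunits as progenitors become neurons.

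Arid1b (ENSMUSG00000069729) lies on chromosome 17 from position 4994332 to 5347656 of GRCm38, plus strand. Exon 5 spans 5242828 to 5243071 and is coding in all 4 protein-coding transcripts of the annotation. The study's methods give the allele as a deletion around exon 5 with a short insertion, and its results as an insertion at the start of that exon. The sequences that would meet if exon 5 were lost and exon 4 spliced to exon 6 are shown because gene-level values would still count such a message. They are from transcript Arid1b-202 of GENCODE, plus strand, and the capitals mark the first stop codon in the new frame.
End of exon 4, chr17:5126995-5127024: attcaacaggaaagaccatcgagtctacca
Start of exon 6, chr17:5264032-5264094: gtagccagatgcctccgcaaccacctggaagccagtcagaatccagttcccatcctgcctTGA
Exon 5 makes up 2.15% of this transcript, so a message without it still contributes nearly all of its reads to the gene's value. Which message the allele makes was not measured here.

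Arid1b had normalised values of 2342, 1973, 2480.4 and 2227 in HT-Veh replicates 1, 3, 4 and 5. In WT-Veh it had 3171, 3036, 3224 and 3229. The groups did not overlap, and HT-Veh stood at 71.3% of WT-Veh (2256 ± 215 against 3165 ± 90.0, SD, n = 4 each), a log2 fold change of -0.49 with a standard error of 0.13. Because the 2 libraries of replicate 2 (3361 in the library labelled HT-Veh and 2320.4 in the library labelled WT-Veh) were left out for this gene, the value is a description and carries no test. Using every vehicle library as labelled, 5 against 5, it was -0.29 (two-sided exact permutation test, p = 0.151). In libraries that were not chosen on this gene, the difference was -0.41 after fluoxetine and -0.55 at P10 (adjusted p = 1.77e-05, limma). The plot of Arid1b by library shows that the 2 open points sit in the range of the other genotype.

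**Figure D1:**
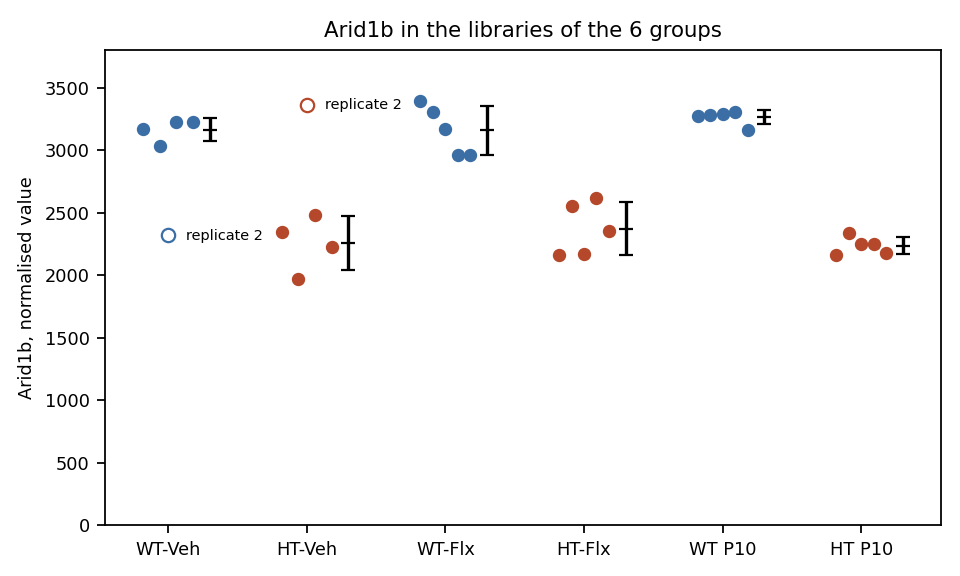
Normalised value of Arid1b (y axis) in each library of the 6 groups (x axis), with mean and SD of the filled points beside them. Open circles are the replicate 2 libraries left out of the vehicle comparison, at 2320.4 in WT-Veh and 3361 in HT-Veh, while the filled vehicle points do not overlap.

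The 8 libraries did not group by genotype. The first principal component held 42.6% of the variance and set HT-Veh 1, HT-Veh 3 and WT-Veh 3 on one side and HT-Veh 4, HT-Veh 5, WT-Veh 1 and WT-Veh 5 on the other. These libraries also differed in base composition. The 10% of genes with the highest GC content had mean deviations from their 8-library means (log2) of 0.30 in HT-Veh 1 and 0.50 in HT-Veh 3, and of -0.32 and -0.25 in HT-Veh 4 and HT-Veh 5. The 10% with the lowest GC content had -0.64 in HT-Veh 1 and -0.49 in WT-Veh 3, and 0.33 and 0.29 in HT-Veh 4 and HT-Veh 5. HT-Veh 3 stood apart on other measures, with short transcripts 0.304 above their means and 8.32% of its total on mitochondrially encoded genes, against 3.66% to 5.18% in the other 7. Each of the 4 HT-Veh libraries had a lower mean correlation with its own group (0.967 to 0.974) than with WT-Veh (0.972 to 0.984). The median SD of a gene was 0.36 within HT-Veh and 0.22 within WT-Veh (log2), and 75.6% of genes had the larger SD in HT-Veh. The part of these library differences in the results that follow was not tested, except where values without a library or after correction are given.

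**Figure D2:**
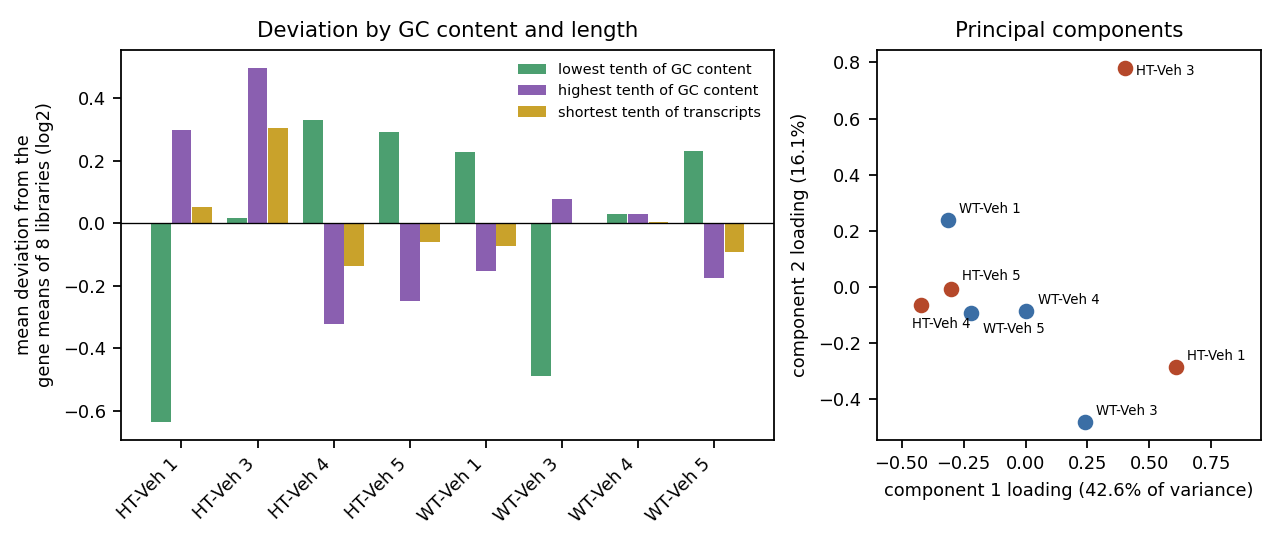
Left, mean deviation (log2) of the 10% of genes with the lowest GC content, with the highest, and with the shortest transcripts, from their means over the 8 libraries, by library. Right, loadings of the 8 libraries on the first 2 principal components, where HT-Veh (red) and WT-Veh (blue) do not separate.

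Markers of brain regions also differed between libraries. Cerebellar markers (17 genes) had a mean log2 value of 10.1 in WT-Veh 1, 11.8 to 12.0 in the other 3 WT-Veh libraries and 11.4 to 11.6 in HT-Veh. Hindbrain and spinal motor markers (16 genes) were at 5.26 in WT-Veh 1 and at 6.97 to 7.07 in the other WT-Veh libraries and 6.41 to 6.89 in HT-Veh, and the glycine transporter Slc6a5, the highest of them, was at 411 against 2357 to 2700.0. WT-Veh 1 therefore held less hindbrain and cerebellar RNA per unit of total than the rest, whether from fewer cells or less RNA per cell, which bulk tissue cannot tell apart. Markers of the main brain cell types were all present. All 15 glutamatergic, 15 GABAergic, 15 astrocyte, 18 mature oligodendrocyte and 16 microglia markers passed the filter on low values.

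No gene passed an adjusted p of 0.05 in HT-Veh against WT-Veh (0 of 17784, smallest adjusted p = 1.00, limma). At an unadjusted p under 0.05 there were 229 genes (1.29%), 136 higher (0.765%) and 93 lower (0.523%) in HT-Veh. The 4 HT-Veh values lay wholly above the 4 WT-Veh values in 95 genes (0.534%) and wholly below them in 90 (0.506%), 185 genes in all (1.04%). Both shares, 1.29% and 1.04%, were below those that random splits give on average, 0.05 and 0.0286 of genes. The value of 0.0286 is the share of the 70 splits into 4 and 4 that part a gene fully. The median standard error of a log2 fold change was 0.22 and the 95% interval reached 0.49 to either side of the median gene. For 83.6% of genes the interval lay within -1 and 1, so a change of more than 2-fold was outside the interval of most genes. Changes smaller than a gene's interval were not detectable at this spread. The intervals hold for each gene alone without adjustment, so larger changes could also miss the adjusted threshold. A log2 fold change beyond 1 in either direction was seen in 120 genes. Of these, 34 had an unadjusted p under 0.05, 10 had groups that did not overlap, and none passed the adjusted threshold. With limma's array quality weights 32 genes passed (17 higher and 15 lower, 10 of them without overlap), the weight of HT-Veh 5 was 14.0 against 0.18 for both HT-Veh 1 and HT-Veh 3, and the estimate stopped before it converged.

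The genes described next were 14 higher and 15 lower ones, Arid1b included, from those with the smallest p among those with a mean of at least 50, groups that did not overlap and a symbol other than a predicted-gene name. They were picked on this contrast, none passed the adjusted threshold, and their values are a description. The heat map of these 29 genes shows which libraries carried each difference.

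Of these genes, Myl4 had the smallest p among those above WT-Veh. Myl4, a myosin light chain of atrial and embryonic muscle, had 614, 718, 372 and 374 in HT-Veh against 279, 281, 201 and 267 in WT-Veh, a log2 fold change of 0.97 (standard error 0.24). Tnnc1, the troponin C of heart and slow muscle, had 174, 223, 135 and 135 against 99.4, 102, 77.3 and 104 (0.77, standard error 0.21). In both genes HT-Veh 1 and HT-Veh 3 were the high samples and HT-Veh 4 and HT-Veh 5 lay nearer the WT-Veh range. These were the only members without overlap among the 10 skeletal and cardiac muscle markers tested. Over all genes 0.534% lay wholly higher in HT-Veh. Of the 10 markers 8 had a positive fold change, beside 9133 of all 17784 genes, and the median was 0.11. Prodynorphin (Pdyn), the precursor of the dynorphin opioid peptides, had 1276, 1138, 1020.2 and 894 in HT-Veh against 885, 733, 549 and 613 in WT-Veh (0.65, standard error 0.19). Its lowest HT-Veh sample was just above its highest WT-Veh sample, WT-Veh 1.

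Igfbp6, which binds insulin-like growth factor, had 1026, 1144, 786 and 742 in HT-Veh against 626, 675, 612 and 564 in WT-Veh (0.56, standard error 0.17). Has1, a hyaluronan synthase, was tight in both groups, at 86.4, 89.6, 90.5 and 73.2 against 51.3, 53.0, 53.1 and 57.1 (0.65, standard error 0.19). Dmkn, a secreted protein known from skin, was at 71.0 to 145 in HT-Veh against 33.4 to 65.9 in WT-Veh. Its highest sample was HT-Veh 4. Aspg, an asparaginase, was at 158 to 255 against 115 to 134 (0.71, standard error 0.19), and Slc4a11, a membrane transporter, at 91.2 to 179 against 57.2 to 88.2.

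Other higher genes were of varied function. mt-Nd4l, a mitochondrially encoded subunit of complex I, was at 4143, 9999, 4587 and 5246 against 3350, 1718, 3722 and 3074 (0.98, standard error 0.31). The high value was that of HT-Veh 3, whose mitochondrial share was the highest. S100a9, a calcium-binding protein of neutrophils, was at 46.8, 109, 40.9 and 105 against 11.7, 31.3, 33.3 and 40.4 (1.33, standard error 0.44), with 2 of the HT-Veh samples just above the highest WT-Veh sample. Zfp729a, a zinc-finger gene, was at 384 to 642 against 135 to 341, Tep1, a telomerase-associated protein, at 378 to 478 against 260 to 375, and the interferon-induced Ifit1 at 65.7 to 104 against 44.3 to 64.3.

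Of the genes that lay below WT-Veh, Abca8a, an ABC transporter, had 160, 271, 261 and 294 in HT-Veh against 455, 337, 461 and 504 in WT-Veh, a log2 fold change of -0.85 (standard error 0.22). Sptlc2, a subunit of the enzyme that starts sphingolipid synthesis, had 535, 884, 797 and 814 against 1027, 966, 965 and 1170.4 (-0.47, standard error 0.18). Sgms2, a sphingomyelin synthase, had 182, 185, 127 and 157 against 206, 251, 223 and 210.2 (-0.46, standard error 0.18). HT-Veh 1 was the lowest sample for Abca8a and Sptlc2, and HT-Veh 4 for Sgms2. Etnppl, an astrocyte enzyme that breaks down phosphoethanolamine, had 926, 1194, 1520 and 1577 against 1714, 1739, 1684 and 2200.1 (-0.51, standard error 0.19), and Cyp4v3, a fatty-acid hydroxylase, 118 to 195 against 219 to 237.

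Nr4a3, an orphan nuclear receptor that is induced by neuronal activity, had 824, 965, 697 and 1114 in HT-Veh against 1419, 1252, 1448 and 1338 in WT-Veh (-0.62, standard error 0.17). All 4 HT-Veh samples lay clear of the WT-Veh range. Fzd4, a receptor for Wnt and Norrin, had 395, 345, 427 and 434 against 483, 561, 534 and 673 (-0.49, standard error 0.16), and Mecom, a zinc-finger transcription factor, 46.0 to 74.0 against 89.0 to 122. P2rx7, an ATP-gated ion channel, had 257 to 329 against 381 to 546, and Zfp488, a factor of oligodendrocyte differentiation, 59.9 to 83.3 against 97.7 to 108. Dsp, the desmosomal protein desmoplakin that marks dentate granule cells, was at 158, 181, 73.1 and 148 against 329.9, 225, 268 and 187 (-0.89, standard error 0.29). Of the 13 dentate gyrus and hippocampus markers tested, 5 had a positive fold change, beside 9133 of all 17784 genes. An unadjusted p under 0.05 was found for 2 higher members, beside 0.765% of all genes, and 1 lower member, Dsp, beside 0.523%. Their median was -0.13, from -0.22 without WT-Veh 3 to 0.01 without WT-Veh 1. The remaining lower genes were the scavenger receptor Ssc5d (81.1 to 131 against 154 to 184), the olfactory receptor Olfr287 (145 to 162 against 179 to 227) and Mob3c, of the MOB kinase activator family (98.9 to 125 against 141 to 173).

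**Figure D3:**
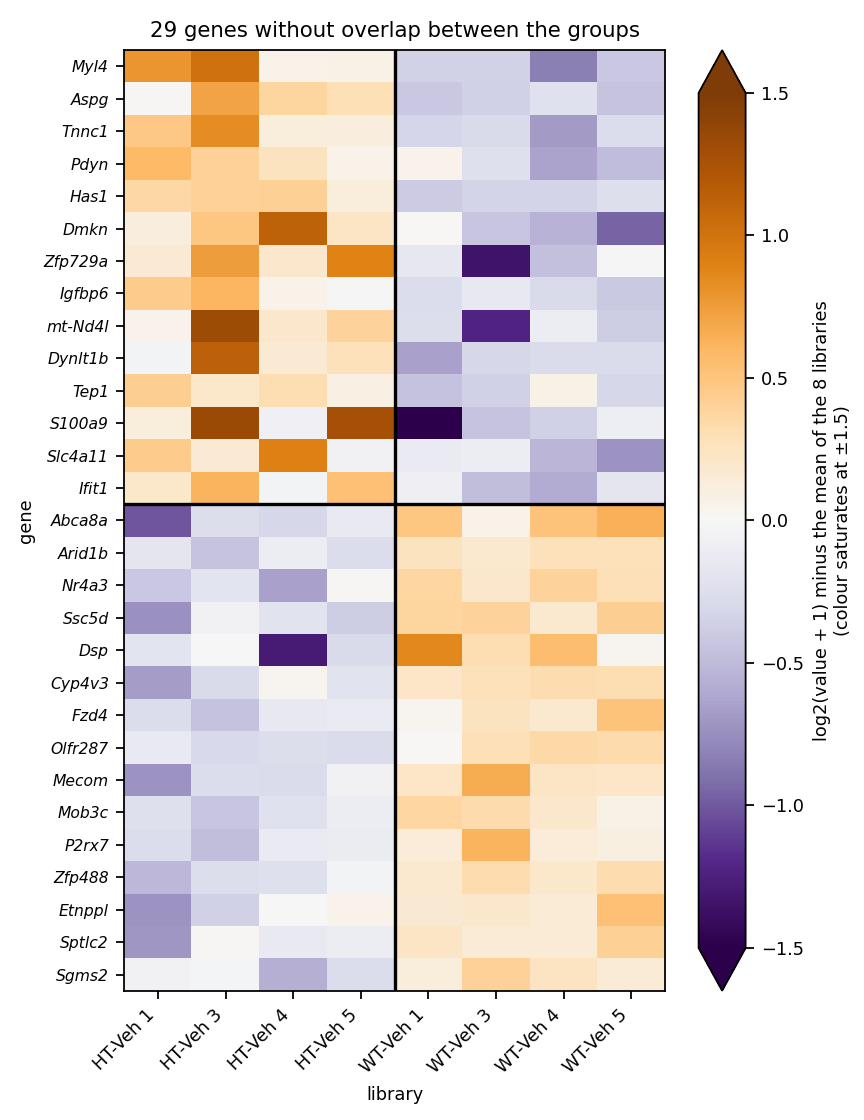
Deviation of log2(value + 1) from the mean of the 8 libraries (colour) for the 14 higher and 15 lower genes (rows, by p within each block) in HT-Veh and WT-Veh libraries (columns). The black lines part the genotypes and the directions, and single saturated cells, such as mt-Nd4l in HT-Veh 3, mark genes whose value stood out in 1 library.

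The replicate 2 libraries had no part in choosing these genes. Over the 184 genes without overlap other than Arid1b, the library labelled HT-Veh replicate 2 lay nearer the WT-Veh mean in 130 and nearer the HT-Veh mean in 54. The library labelled WT-Veh replicate 2 lay nearer each mean in 92. Both were nearer the other genotype in 65 genes and both nearer their own in 27. Over all 17784 genes, the library labelled HT-Veh replicate 2 lay nearer the WT-Veh mean in 8375. The library labelled WT-Veh replicate 2 lay nearer the HT-Veh mean in 8960. Both were nearer the other genotype in 4375 and both nearer their own in 4824. Genes vary together, so these counts are not independent votes. Among the genes above, Myl4 was at 236 in HT-Veh replicate 2 and 537 in WT-Veh replicate 2, and Abca8a at 391 and 190.5, while Nr4a3 was at 1002 and 1367 and followed the labels.

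The study measured the proteins of Hdac4, Mef2a and Arc, and their RNA differed by less than its error. Hdac4, a class IIa histone deacetylase that represses MEF2, was at 2967, 2785, 2464 and 2412 in HT-Veh against 2234, 2810, 2921 and 2883 in WT-Veh, a log2 fold change of -0.03 (95% interval -0.35 to 0.30). Mef2a, an activity-regulated transcription factor, was at 2529 to 5215 against 2830 to 4803 (-0.09, interval -0.64 to 0.46). Arc, an activity-induced regulator of AMPA receptor trafficking, was at 8588, 10074, 3972 and 5571 against 8054, 9616, 7268 and 6213 (-0.22, interval -0.82 to 0.39), with HT-Veh 1 and HT-Veh 3 above most WT-Veh samples and HT-Veh 4 and HT-Veh 5 below them. The intervals include 0 for each of the 3 genes.

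Other BAF subunits lay close to WT-Veh. Of the 14 core and ATPase subunits none had an unadjusted p under 0.05, beside 1.29% of all genes. Their log2 fold changes ran from -0.10 to 0.17 with a median of 0.05, beside 0.01 over all genes. Smarcc2, a scaffold subunit, was at 12000.0 to 15354 in HT-Veh against 11542 to 14176 in WT-Veh. Both ATPases were as close. Smarca4 was at 6465 to 9200 in HT-Veh against 5953 to 8022 in WT-Veh, and Smarca2 at 6472 to 8819 against 7118 to 8694. Of the 16 subunits that define the BAF subtypes the groups overlapped in all but Arid1b, whose own values decided which libraries were used. Only 1.04% of all genes had groups without overlap, so most lists of this size would hold none. Arid1a, its paralog, was at 6921, 5568, 5668 and 5356 in HT-Veh against 5829.6, 6227, 5330.2 and 5207 in WT-Veh, a log2 fold change of 0.05 (95% interval -0.26 to 0.37).

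Of the 21 tested genes around Arid1b on chromosome 17, 16 had a positive fold change, beside 9133 of all 17784 genes (median 0.13). An unadjusted p under 0.05 was found for 3 of them, all higher, beside 0.765% of all genes. The median of the same list was -0.01 at P10 and -0.01 after fluoxetine. Dynlt1b, a dynein light chain gene at 6430112 to 6436296, was at 619, 1399, 710.2 and 776 in HT-Veh against 405, 514, 528 and 527 in WT-Veh (0.76, standard error 0.24), and it was 0.51 without HT-Veh 3. A pair of pseudogenes farther along, Tmem181b-ps and Tmem181c-ps, were among the 4 genes (0.0225%) that passed the adjusted threshold at P10. In the vehicle libraries they had log2 fold changes of 0.45 and 0.42 with groups that overlapped. Their unadjusted p-values there were 0.0213 and 0.0449 (limma), and 0.0571 and 0.0857 in two-sided exact permutation tests. In the library labelled HT-Veh replicate 2 these pseudogenes were at 4562 and 189, and in the one labelled WT-Veh replicate 2 at 7417 and 303. Dynlt1b and both pseudogenes have near-identical copies nearby, among which reads could be split, so their values are uncertain.

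Synaptic gene groups lay at the level of all genes. Their medians were 0.04 for 25 ionotropic glutamate receptor genes, 0.05 for 23 postsynaptic scaffolds, 0.05 for 30 presynaptic release genes and 0.01 for 20 GABA receptor genes. The median over all genes was 0.01. None of these members had an unadjusted p under 0.05. Only 1.29% of all genes had one, so most lists of this size would hold none. Grin1, the obligatory NMDA receptor subunit, was at 30728, 31705, 21981 and 21129 in HT-Veh against 21274, 25423, 23470.0 and 21985 in WT-Veh. Its 2 high samples were again HT-Veh 1 and HT-Veh 3. None of the 20 tested serotonin-system genes had an unadjusted p under 0.05 either (median 0.04). Tph2, which makes serotonin in the raphe, was at 133 to 354 in HT-Veh against 71.5 to 341 in WT-Veh, with the lowest value in WT-Veh 1, the library low in hindbrain markers. This gene was named after its values were seen.

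Of 27 activity-induced genes, 21 had a negative fold change, beside 8651 of all 17784 genes, and the median was -0.18. An unadjusted p under 0.05 was found for 2 of them, both lower, beside 0.523% of all genes. The median was -0.03 without HT-Veh 4 and -0.30 without HT-Veh 1 or without HT-Veh 3. Nr4a3, above, had groups that did not overlap below WT-Veh, and Nptx2, a neuronal pentraxin that clusters AMPA receptors, above it, at 1648, 1599, 4924 and 1440.4 against 1096, 1224, 1303 and 1389. The Nptx2 fold change of 0.74 was 0.32 without HT-Veh 4. As a group the genes had mean deviations of 0.18 and 0.20 in HT-Veh 1 and HT-Veh 3 and of -0.44 and -0.23 in HT-Veh 4 and HT-Veh 5, against -0.06 to 0.21 in WT-Veh, so HT-Veh 1 and HT-Veh 3 lay within the WT-Veh range and HT-Veh 4 and HT-Veh 5 below it. Their median was 0.11 at P10 and 0.44 after fluoxetine.

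Translation and respiration genes had small positive differences that HT-Veh 3 carried for the most part. Positive fold changes were found for 78 of 80 cytosolic ribosomal, 70 of 78 mitochondrial ribosomal and 70 of 74 nuclear respiratory-chain genes, beside 9133 of all 17784 genes. The medians were 0.20, 0.14 and 0.18, but the cytosolic ribosomal genes deviated by 0.74 in HT-Veh 3 and by -0.34 and -0.18 in HT-Veh 4 and HT-Veh 5. Without HT-Veh 3 the 3 medians were -0.01, 0.03 and 0.01. Mrpl33, a mitochondrial ribosomal protein, was the only member of these 3 lists without overlap, beside 1.04% of all genes. It was at 515, 975, 471 and 471 against 410, 425, 422 and 390. Its fold change of 0.49 was 0.24 without HT-Veh 3. All 13 mitochondrially encoded genes had positive fold changes (median 0.45), with deviations of 1.02 in HT-Veh 3 and -0.08 to -0.04 in the other 3 HT-Veh libraries. WT-Veh 3 deviated by -0.58 and the other WT-Veh libraries by -0.16 to 0.04, so those 3 HT-Veh libraries lay within the WT-Veh range. The median was 0.14 without HT-Veh 3 and 0.35 without WT-Veh 3. Of 98 autism-risk genes 64 had a negative fold change, beside 8651 of all 17784 genes. Their median of -0.06 was 0.00 in values adjusted per library for GC content and length.

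All 16 microglia markers had positive fold changes (median 0.20), beside 9133 of all 17784 genes. None had an unadjusted p under 0.05, beside 1.29% of all genes. Csf1r, the receptor microglia depend on, was at 3685, 4314, 2598 and 2664 in HT-Veh against 3156, 3097, 2748 and 2183 in WT-Veh. The mean deviation of the list was 0.45 in HT-Veh 3, -0.38 in WT-Veh 5 and between -0.10 and 0.11 in the other 6, and the median was 0.10 without HT-Veh 3, 0.11 without WT-Veh 5, 0.30 without HT-Veh 4 and 0.32 without HT-Veh 5. Of 15 astrocyte markers 10 had a negative fold change (median -0.15), which was -0.07 without WT-Veh 3, -0.08 in values adjusted for GC content and length, and 0.01 with all 5 and 5 libraries. For 18 mature oligodendrocyte markers the median was -0.01. Markers of lymphocytes and neutrophils had a median of 0.94 over only 5 genes, and 0.39 without WT-Veh 1. The 4 tested pituitary markers, which were at or near 0 in several libraries, had -0.90, from -1.67 without HT-Veh 5 and -1.40 without WT-Veh 1 to -0.33 without WT-Veh 3. Among these, growth hormone (Gh) was at 303 in HT-Veh 5 and 0 in the other 3 HT-Veh libraries, and at 599.6 in WT-Veh 3.

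Striatal markers were the region list with the largest median, 0.30, and 15 of 16 were positive, beside 9133 of all 17784 genes. Pdyn was the only member without overlap, beside 1.04% of all genes. Adcy5, the adenylyl cyclase of striatal neurons and the member with the highest value, was at 15980.0, 17344, 10880.0 and 10188 in HT-Veh against 12302, 11831, 9861 and 10074 in WT-Veh. The list deviated by 0.22, 0.36, 0.03 and 0.01 in HT-Veh 1, 3, 4 and 5 and by 0.28, -0.23, -0.45 and -0.23 in WT-Veh 1, 3, 4 and 5, so WT-Veh 1 lay within the HT-Veh range and the other 3 WT-Veh libraries below it. In the same libraries the cerebellar list deviated by -1.31 in WT-Veh 1 and by 0.30 to 0.53 in the other 3. The striatal median was 0.41 without WT-Veh 1, 0.21 without WT-Veh 4, 0.22 without HT-Veh 3 and 0.20 with all 5 and 5 libraries. Without WT-Veh 1 the cerebellar, hindbrain and midbrain dopamine medians were -0.43, -0.41 and -0.38. With it they were -0.03, 0.08 and -0.12. Without WT-Veh 1 the striatal median of 0.41 was still the highest of the region lists, but the cerebellar median was larger in absolute size. The part of regional composition in the striatal difference was otherwise not tested. The heat map of the lists sets these deviations side by side.

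**Figure D4:**
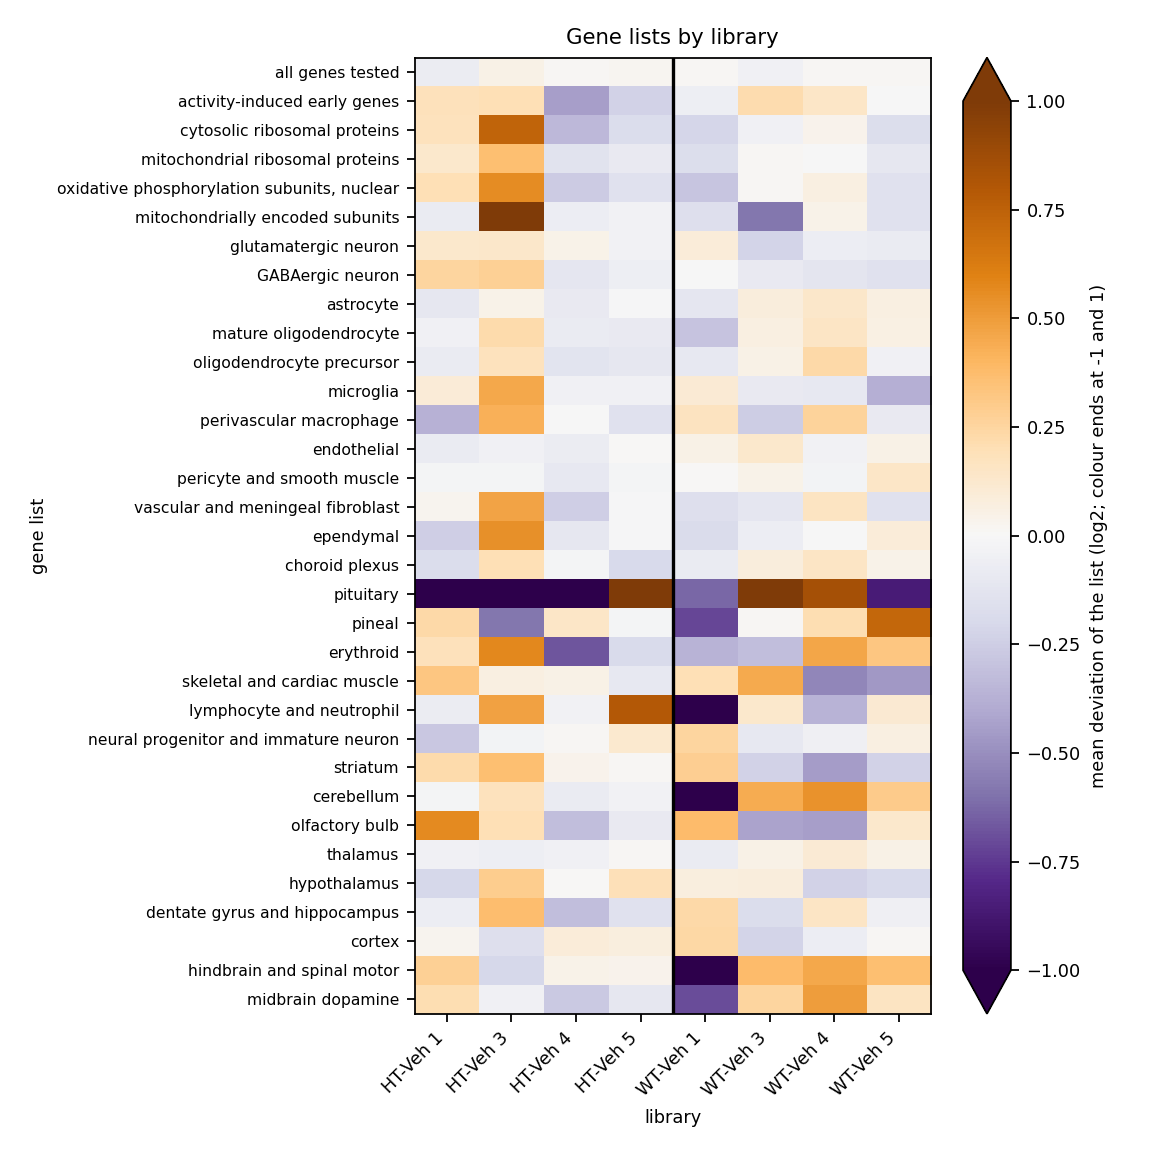
Mean deviation (log2, colour) of the tested genes of the all-gene, activity, translation, respiration, cell type and region lists (rows) from their means over the 8 libraries (columns). WT-Veh 1 stands out in the cerebellar row at -1.31 and HT-Veh 3 in the mitochondrially encoded row at 1.02.

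The remaining libraries give the same genes measured in other mice. Of the 95 genes wholly higher in HT-Veh, 53 (55.8%) were higher in HT at P10, beside 46.9% of all genes, and of the 90 wholly lower 51 (56.7%) were lower at P10, beside 53.1%. After fluoxetine the counts were 63 (66.3%, beside 50.9%) and 70 (77.8%, beside 49.1%). Arid1b, whose own values decided which vehicle libraries were used, was among the 90 and was lower in HT in both of these comparisons. The fluoxetine comparison called 63.8% of all genes, and its libraries parted by base composition, with deviations of -0.75 to -0.14 in HT-Flx and of 0.33 to 0.42 in WT-Flx for genes of lowest GC content, so its directions are given without a test. Abca8a was among those lower there too (-1.53), as was Etnppl (-1.06), while at P10 they had 0.00 and 1.42. Igfbp6 (0.73) and Myl4 (0.88) were higher after fluoxetine, and Zfp729a, higher under vehicle, was lower there (-1.31).

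Whether the genotype difference itself changed with fluoxetine or with age was tested with interaction terms. No gene passed for fluoxetine (smallest adjusted p = 0.0574, limma), although 7320 genes (41.2%) had an unadjusted p under 0.05. After GC and length correction, chosen after seeing the data, 3640 had one and the smallest adjusted p was 0.161 (limma). Without correction, 7178 passed without HT-Veh 1, 5547 without HT-Veh 3, 3714 without WT-Veh 1 and 2310 without HT-Flx 4. No gene passed for age (smallest adjusted p = 0.604, limma), with 603 (3.39%) at an unadjusted p under 0.05, and 1 passed without HT-Veh 3. The P10 mice were untreated and the vehicle mice had dams on saccharin water, so age cannot be told apart from vehicle dosing. The plot of the 3 genotype comparisons shows these genes in each.

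**Figure D5:**
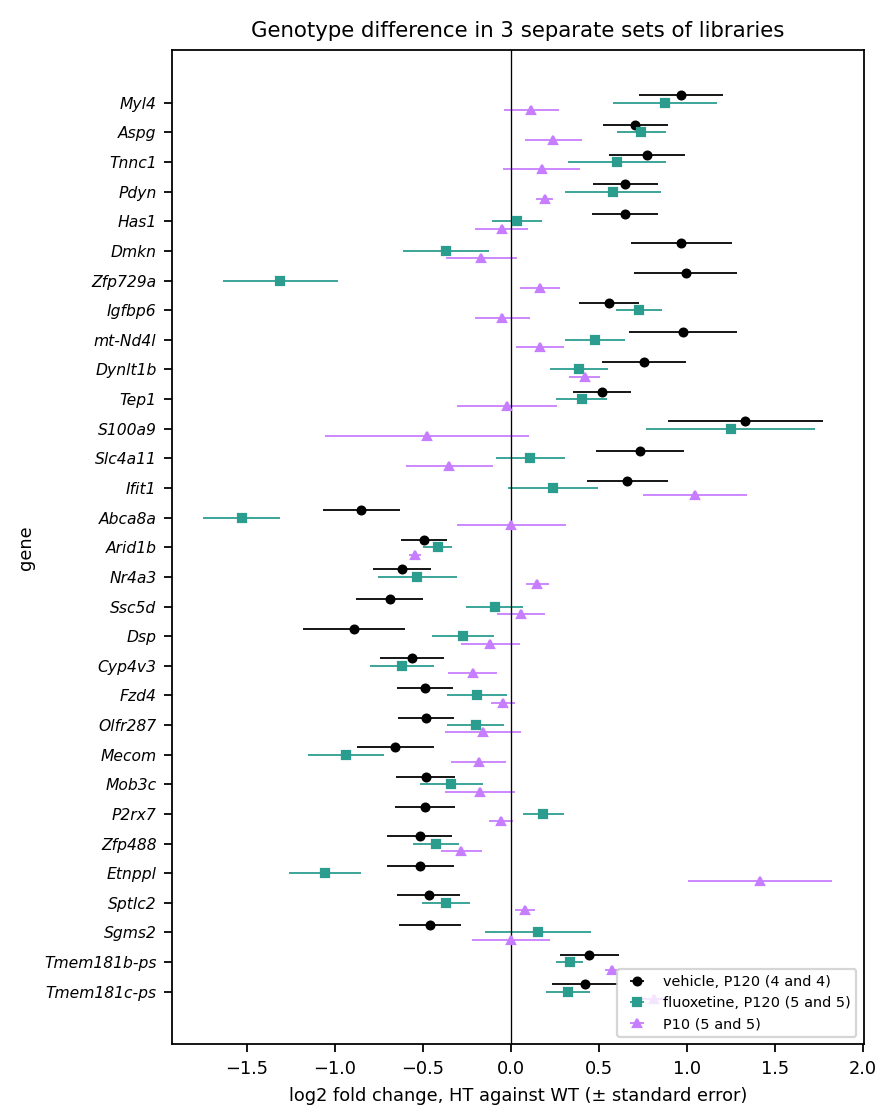
Log2 fold change of HT against WT with its standard error for the 29 genes and the 2 Tmem181 pseudogenes under vehicle, after fluoxetine and at P10. The vehicle values of the 29 genes are parted by the choice of genes. At P10 8 of 14 higher and 9 of 15 lower genes, Arid1b among the latter, kept their side of 0. Of all genes 46.9% were above 0 and 53.1% below it at P10.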

How the data were processed

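Values were used as deposited. The authors made poly-A TruSeq libraries, quantified paired-end NovaSeq reads with Salmon 1.1.0 against GRCm38 transcripts, with correction of GC bias on, and normalized gene sums with DESeq2 1.30.1. The deposited signal is therefore a normalized read count per gene, and whole reads could not be recovered from it, so no count model was used.

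Genes with a mean of at least 10 were compared as log2(value + 1) with limma 3.58.1 (R 4.3.3, intensity trend) and Benjamini-Hochberg adjustment at 0.05. Fold changes of low genes are understated on this scale. Exact permutation tests were two-sided. The members, lists and rules were chosen with earlier results of these data known. Names went to Arid1b, the 15 higher and 15 lower genes described above, 4 genes whose protein the study measured, and the list members without overlap or with the highest value. Of these, 1 of the 15 higher and 1 of the 4 are not reported here. GC content, length and positions came from GENCODE (GRCm38). The fits were tested on simulated data. With 1 library per mouse, p-values measure the spread between these mice together with that between their libraries and samples. Nothing in the labels names cultures or litters. Dosing was through the dams, so mice of the same litter may not be independent, which could not be tested.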

Additional observations from a re-analysis of the deposited data

Results flagged for a closer look

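In 16 of 156 groups of 4 libraries, 1 library lay far from the other 3 by Dixon's test, which chance alone gives in about 1 in 20 groups. Among the genes, Dynlt1b was at 405 in WT-Veh 1 (514 to 528 in the other 3) and Hdac4 at 2234 (2810 to 2921). In WT-Veh 3, Mecom was at 122 (89.0 to 89.9) and P2rx7 at 546 (381 to 393). Tnnc1 was at 77.3 in WT-Veh 4 (99.4 to 104) and Etnppl at 2200.1 in WT-Veh 5 (1684 to 1739).

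For lists the measure was the mean log2 value. HT-Veh 3 was high for mitochondrially encoded genes at 16.8 (15.7 in the others), mature oligodendrocyte markers at 11.8 (11.5 to 11.6) and oligodendrocyte precursor markers at 9.92 (9.62 to 9.66). WT-Veh 1 was low for cerebellar markers at 10.1 (11.8 to 12.0) and hindbrain markers at 5.26 (6.97 to 7.07). Glutamate receptor genes were low in HT-Veh 1 at 11.3 (11.4) and in WT-Veh 3 at 11.2 (11.4). Pericyte markers were at 7.88 in HT-Veh 4 (7.95 to 7.96), fibroblast markers at 9.65 in WT-Veh 4 (9.33 to 9.38) and pituitary markers at 6.58 in HT-Veh 5 (2.60 to 3.05).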

How the results depend on the processing

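The count of 0 genes in HT-Veh against WT-Veh held under other pseudocounts (5 and 0.1), no filter, a minimum mean of 100, median-of-ratios scaling, no trend, 1 fit over all P120 groups, all 5 and 5 libraries, and correction for GC content and length. Array quality weights gave 32, and leaving out 1 library gave 0 to 1. Of the alternatives chosen after seeing the data, leaving out the 3 libraries furthest on GC content or length gave 2 and the correction with weights gave 1. Arid1b ranged from -0.51 (array quality weights) to -0.29, and from -0.54 to -0.43 without single libraries. The fluoxetine comparison went from 11339 to 6580 genes after GC and length correction, also chosen after seeing the data, and from 10517 to 11551 without single libraries. P10 ranged from 3 to 7. The fluoxetine interaction gave 3107 at a minimum mean of 100 and 0 to 7178 without single libraries, and the age interaction 0 to 1.

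Replicate numbers did not pair the mice (same-number correlations of deviations -0.30, 0.15, -0.13 and 0.23). With the replicate block 0 genes passed under vehicle, also with GC correction, 10636 after fluoxetine, 0 in either interaction and 7 at P10.

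Signs turned in 3 genes near 0. Mef2a was 0.182 with array weights, 0.0239 after GC correction with or without the block, 0.171 without the 3 libraries, 0.0366 with correction and weights, and -0.26 to 0.0863 without single libraries. Hdac4 was 0.0176 with 5 and 5 libraries, 0.0226 after GC correction with or without the block, and -0.12 to 0.0184 without single libraries. Arc was -0.42 to 0.0280 without single libraries. The cause was not tested. The unknown read depth limits statements on low genes.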
